A study of Mus musculus with 3 samples.

Results

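The genes described here are 33 genes of glycolysis and of the response to low oxygen, among 31053 gene features counted in immune cells sorted from the mouse pancreas. They were matched to the files by symbol: 2 glucose transporters, 3 hexokinases, 7 enzymes of upper glycolysis, 2 PFKFB regulators, 5 enzymes of lower glycolysis, 2 genes of lactate production and export, Hif1a with 2 prolyl hydroxylases, and 9 other targets of HIF. The symbol Aldoa stands for 2 gene identifiers, which were summed, although the identifier ENSMUSG00000114515 had 0 UMIs in each library. Live CD45+ cells had been sorted from the pancreas of C57BL/6J mice, and 1 droplet library was made for each of 3 groups: mice that received PBS, mice that received WGP 3 days earlier (3-day WGP) and mice that received WGP 7 days earlier (7-day WGP). WGP is a whole glucan particle from yeast, a particulate β-glucan taken up by phagocytosis, and both agents were injected into the peritoneum. The methods of the study give mice of both sexes, while the labels give neither the sex nor the number of mice behind each library.

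Glycolysis splits glucose into pyruvate and yields ATP without oxygen, and lactate dehydrogenase and the lactate exporter MCT4 carry the end product out of the cell. HIF-1α, encoded by Hif1a, is the oxygen-regulated subunit of a transcription factor that binds the core sequences ACGTG and GCGTG and raises most glycolytic enzymes. Prolyl hydroxylases mark HIF-1α for destruction when oxygen is present, and activated macrophages are known to keep HIF-1α and high glycolysis even in the presence of oxygen. An mRNA level measures neither glycolytic flux nor the amount of HIF-1α protein.

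Promoter windows of 7 members are printed because their genes carry the pattern described further on: 6 with higher levels in monocyte/macrophages after WGP, and Pfkfb4, with lower levels there. Each window holds the 250 bases before and the 50 bases after a RefSeq transcript start (GRCm38.p6), and capitals mark ACGTG or GCGTG on either strand. They lie at chr4:119108495-119108794 (Slc2a1, plus strand), chrX:106186850-106187149 (Pgk1, plus strand), chr7:46845554-46845853 (Ldha, plus strand, the upstream of its windows), chr11:120948817-120949116 (Slc16a3, plus strand), chr10:75860228-75860527 (Mif, minus strand), chr12:73907617-73907916 (Hif1a, plus strand) and chr9:108991652-108991951 (Pfkfb4, plus strand).
Slc2a1: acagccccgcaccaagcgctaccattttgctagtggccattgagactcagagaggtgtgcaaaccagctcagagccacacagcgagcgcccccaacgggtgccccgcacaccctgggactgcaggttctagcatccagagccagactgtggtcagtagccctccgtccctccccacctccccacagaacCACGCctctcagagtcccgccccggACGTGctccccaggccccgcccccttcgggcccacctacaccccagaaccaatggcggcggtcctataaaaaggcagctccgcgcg
Pgk1: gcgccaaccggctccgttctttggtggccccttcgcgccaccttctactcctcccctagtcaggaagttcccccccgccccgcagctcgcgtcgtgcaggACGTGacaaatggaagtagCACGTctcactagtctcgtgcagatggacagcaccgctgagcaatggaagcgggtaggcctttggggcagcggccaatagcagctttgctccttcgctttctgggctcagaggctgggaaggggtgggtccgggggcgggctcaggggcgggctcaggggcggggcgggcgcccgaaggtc
Ldha: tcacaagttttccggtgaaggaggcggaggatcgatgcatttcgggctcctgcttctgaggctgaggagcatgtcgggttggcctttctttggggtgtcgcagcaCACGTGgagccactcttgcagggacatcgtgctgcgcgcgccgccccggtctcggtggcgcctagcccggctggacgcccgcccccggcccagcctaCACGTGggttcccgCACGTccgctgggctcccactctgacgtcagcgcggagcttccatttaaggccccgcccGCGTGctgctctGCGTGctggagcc
Slc16a3: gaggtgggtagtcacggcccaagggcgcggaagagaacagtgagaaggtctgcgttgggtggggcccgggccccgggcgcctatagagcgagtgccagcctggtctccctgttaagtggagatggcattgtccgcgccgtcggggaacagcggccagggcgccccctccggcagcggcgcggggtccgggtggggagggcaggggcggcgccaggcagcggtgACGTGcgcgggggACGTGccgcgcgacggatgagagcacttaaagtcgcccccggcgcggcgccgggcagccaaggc
Mif: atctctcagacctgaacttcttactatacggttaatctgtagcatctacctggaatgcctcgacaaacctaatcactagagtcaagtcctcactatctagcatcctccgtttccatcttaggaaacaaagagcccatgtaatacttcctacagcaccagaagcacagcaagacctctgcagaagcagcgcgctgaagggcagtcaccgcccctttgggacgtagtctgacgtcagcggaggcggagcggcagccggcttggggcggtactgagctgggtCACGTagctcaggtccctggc
Hif1a: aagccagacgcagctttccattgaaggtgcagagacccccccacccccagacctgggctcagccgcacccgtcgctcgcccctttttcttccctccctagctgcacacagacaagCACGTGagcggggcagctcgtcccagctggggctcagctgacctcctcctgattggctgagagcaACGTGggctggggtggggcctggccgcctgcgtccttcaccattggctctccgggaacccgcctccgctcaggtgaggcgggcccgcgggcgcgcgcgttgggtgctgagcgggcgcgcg
Pfkfb4: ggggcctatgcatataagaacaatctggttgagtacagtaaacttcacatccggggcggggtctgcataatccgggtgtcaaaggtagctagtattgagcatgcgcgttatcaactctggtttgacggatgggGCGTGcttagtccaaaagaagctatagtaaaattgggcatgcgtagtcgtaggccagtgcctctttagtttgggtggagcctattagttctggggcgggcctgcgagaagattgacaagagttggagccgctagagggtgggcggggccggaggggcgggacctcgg

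RefSeq windows were matched to 31 of the 33 members, 45 windows in all; Slc2a3 and Ndrg1 had none. ACGTG stood on either strand of 27 member windows (60%), against 19.6% of all 32851 windows and 26.7% of the 8406 windows of genes that reached 10 CPM in monocyte/macrophages. Because CACGTG holds ACGTG on both strands, a palindrome counts for both. GCGTG stood in 25 member windows (55.6%), against 32.4% of all windows and 51.0% of those of the expressed genes. At least 1 of the pair of motifs stood in 82.2% of member windows, against 43.8% of all windows and 63.0% of those of the expressed genes. By gene, it was found for 29 of the 31 members, among them 19 of the 20 members that were past 2-fold higher in 7-day WGP monocyte/macrophages and 10 of the 11 that were not. Nearly all members thus had a match to the pair, so this count could hardly differ between those that passed and those that did not. Taken singly, ACGTG was found for 16 of the 20 and 8 of the 11, and GCGTG for 11 of the 20 and 9 of the 11. A match marks letters and not a site of binding.

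Barcodes with at least 1000 UMIs and at most 30% mitochondrial UMIs numbered 5249 in PBS, 4879 at 3-day WGP and 4174 at 7-day WGP, with 46240979, 51793608 and 41749724 UMIs. Cells were clustered without the member genes, and clusters were named from marker lists, so that a name such as macrophage stands for cells like it. Pairs of libraries shared between 1 and 9 barcodes. The libraries also differed in the sex of their cells: nearly all PBS monocyte/macrophages carried Xist, a transcript of female cells, and most of the 3-day ones carried transcripts of chromosome Y, so results in that class are given for Xist cells alone as well. Each group had 1 library, so no difference between groups has a replicate check or a test, and the 95% intervals given are exact and cover counting error only. A level is a UMI sum over the cells of a class, scaled to counts per 1e6 UMIs of that class (CPM). The difference from PBS is log2 of the ratio of CPM, and a member counted as past 2-fold where log2 of the ratio, after 10 CPM was added to both levels, was at least 1 and the pair of libraries held at least 20 of its UMIs. UMIs from the 3′ end are not scaled by gene length, and reads that fit near-identical copies elsewhere in the genome are dropped in counting, which makes levels of Gapdh, Eno1, Ldha, Pgk1, Pgam1, Tpi1, Pkm and Aldoa uncertain.

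The largest differences were in monocyte/macrophages (851 PBS, 777 3-day WGP and 1476 7-day WGP cells). The 33 members together held 3093 CPM (95% interval 3057 to 3129) in PBS, 7869 CPM (7818 to 7920) at 3-day WGP and 8800 CPM (8757 to 8845) at 7-day WGP. The sum was 2.54-fold and 2.85-fold the PBS level, log2 1.35 (1.33 to 1.37) and 1.51 (1.49 to 1.53). In the median cell the members took 0.261% of UMIs in PBS (quartiles 0.203% and 0.349%), 0.656% at 3-day WGP (0.377% and 0.988%) and 0.740% at 7-day WGP (0.516% and 1.08%). The lower quartile of both WGP libraries thus lay above the upper quartile of PBS.

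Of the 33 members, 16 were past 2-fold higher in 3-day WGP monocyte/macrophages and 0 lower, where 3.44% of all 8164 genes tested were higher and 3.44% lower. At 7-day WGP 20 were higher and 0 lower, against 3.99% and 5.66% of 8115 genes. The median log2 difference of the members, with 10 CPM added, was 0.91 and 1.15, and that of all genes tested was -0.05 and -0.12. Those 2 comparisons share the PBS library. Among cells with Xist alone the sum differed from PBS by 0.43 at 3-day WGP, with 0 of 31 members past 2-fold where 2.14% of genes tested were higher and 1.28% lower, and by 1.51 at 7-day WGP, with 17 of 33. Without barcodes above 9773 UMIs, the knee of the rank curve, 8 members were higher at 3-day WGP. This limit lies below the median depth of the class in every library (10092, 14006 and 10842 UMIs), so most of its cells were removed. The share of all genes was not counted under it.

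**Figure D1:**
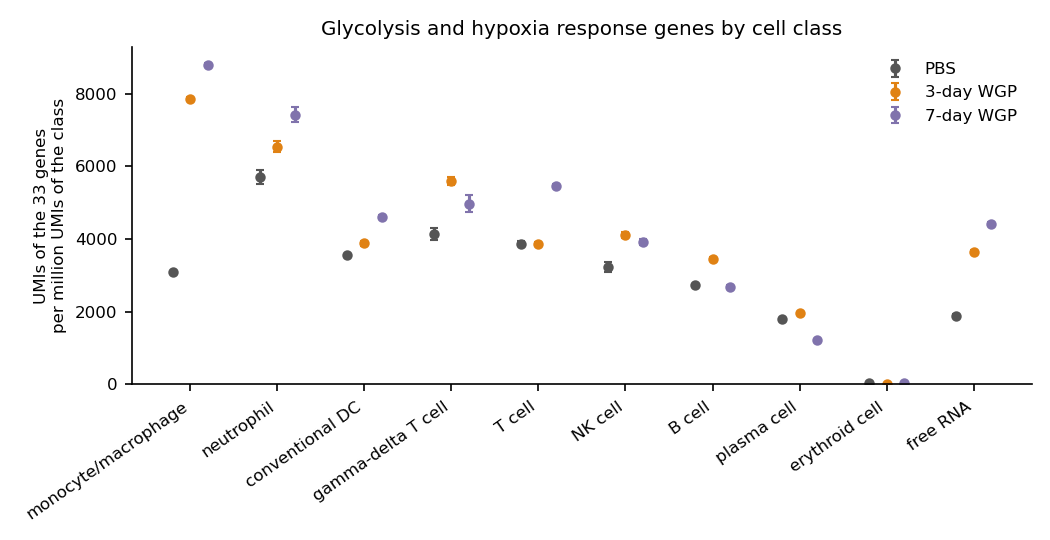
Summed level of the 33 members (CPM, linear axis from 0) in 8 compared classes, erythroid cells and free RNA, with 1 value per library and 95% intervals of counting error. Monocyte/macrophages moved from 3093 CPM in PBS to 7869 and 8800 CPM in the WGP libraries, and in PBS neutrophils held the highest sum, 5708 CPM.

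Of the 2 glucose transporters, 1 passed the 2-fold limit at the level of mRNA. Slc2a1, which encodes the widely used transporter GLUT1, had 6.93 CPM in PBS monocyte/macrophages, 37.6 CPM at 3-day WGP and 87.1 CPM at 7-day WGP. These are log2 differences of 2.44 (2.06 to 2.84) and 3.65 (3.29 to 4.04), with the 7-day library well above the 3-day library. Slc2a3, which encodes GLUT3, was rare in these cells, with 37, 23 and 20 UMIs (4.01, 1.95 and 1.15 CPM), and did not pass the 2-fold limit. In Xist cells alone Slc2a1 had 6.91 CPM in PBS, 4.93 CPM at 3-day WGP and 67.7 CPM at 7-day WGP.

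Among the hexokinases, which trap glucose as glucose 6-phosphate, Hk2 had 50.6, 98.3 and 113 CPM in the order PBS, 3-day WGP and 7-day WGP. Hk3, the myeloid form, had 34.1, 59.0 and 88.2 CPM. Both passed the limit at 7-day WGP only, with log2 1.16 (1.01 to 1.30) and 1.37 (1.19 to 1.55), and whether the times differed for them was not tested. Hk1, the broadly expressed form, stayed between 23.7 and 36.0 CPM.

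In upper glycolysis, the liver-type phosphofructokinase Pfkl had 23.6, 91.3 and 89.3 CPM, log2 1.95 (1.74 to 2.17) and 1.92 (1.71 to 2.13). The platelet-type Pfkp had 42.2, 67.2 and 115 CPM and passed only at 7-day WGP, at 1.45 (1.29 to 1.61). The muscle-type Pfkm stayed at 2.88 to 3.25 CPM, so the isoforms of this rate-setting enzyme differed in different ways. Aldolase A, Aldoa, had 249, 707 and 883 CPM, log2 1.5 and 1.83. Aldolase C, Aldoc, was rare in PBS, at 15 UMIs, and had 1.62, 5.0 and 14.8 CPM. Triose phosphate isomerase, Tpi1, had 137, 361 and 416 CPM, while the glucose phosphate isomerase Gpi1 had 289, 373 and 439 CPM and stayed within 2-fold.

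The PFKFB enzymes set the level of fructose 2,6-bisphosphate, the activator of phosphofructokinase. Pfkfb3 had 28.9, 39.7 and 43.2 CPM. Pfkfb4 had 47.6 CPM in PBS, 27.0 CPM at 3-day WGP and 29.5 CPM at 7-day WGP, log2 -0.82 (-1.03 to -0.61) and -0.69 (-0.87 to -0.50). It was one of 3 members below PBS at either time and had the largest UMI number of them, and it did not pass the 2-fold limit.

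All 5 enzymes of lower glycolysis passed at both times. Gapdh had 951, 2153 and 2423 CPM and alone held 30.8%, 27.4% and 27.5% of the members' UMIs. Pgk1, the first ATP-yielding step, had 111, 542 and 492 CPM, log2 2.29 (2.19 to 2.38) and 2.15 (2.05 to 2.24). Its ratio to PBS was the highest of the 5, above Pgam1 (129, 427 and 392 CPM), the enolase Eno1 (161, 379 and 339 CPM), the pyruvate kinase Pkm (278, 639 and 768 CPM) and Gapdh. Pgk1, Pgam1 and Eno1 were a little lower in 7-day than in 3-day WGP, and Gapdh and Pkm a little higher.

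At the end of the pathway, the lactate dehydrogenase subunit Ldha had 199, 681 and 538 CPM, log2 1.77 (1.70 to 1.85) and 1.43 (1.36 to 1.51). Slc16a3, which encodes the lactate exporter MCT4, had 20.9, 129 and 124 CPM, log2 2.63 (2.41 to 2.85) and 2.57 (2.36 to 2.79). Together the lactate genes had 220, 810 and 662 CPM and were the only group of members, apart from the PFKFB genes, to peak at 3-day WGP or in PBS.

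Hif1a itself had 67.1 CPM in PBS monocyte/macrophages, 210 CPM at 3-day WGP and 444 CPM at 7-day WGP, log2 1.65 (1.52 to 1.78) and 2.73 (2.61 to 2.85). The 7-day library exceeded the 3-day library by 1.08 (1.01 to 1.14). Egln1, the main oxygen-sensing prolyl hydroxylase, had 43.7, 63.3 and 59.5 CPM. Egln3, a hydroxylase that is itself a HIF target, had 1, 70 and 171 UMIs (0.108, 5.93 and 9.80 CPM), too low for the 2-fold rule, and with 1 UMI in PBS its log2 difference at 7-day WGP had an interval of 4.00 to 11.81.

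The other HIF targets were uneven. Vegfa, the vascular growth factor, had 13, 391 and 1196 UMIs (1.41, 33.1 and 68.6 CPM), log2 4.56 (3.77 to 5.48) and 5.61 (4.83 to 6.52). Ankrd37, a small ankyrin-repeat target of HIF, had 1.95, 29.1 and 25.9 CPM, log2 3.90 (3.22 to 4.67) and 3.73 (3.06 to 4.50). Mif, a cytokine that macrophages release, had 97.9, 473 and 572 CPM, log2 2.27 (2.17 to 2.37) and 2.55 (2.45 to 2.65). After Egln3, Vegfa and Ankrd37 had the highest ratios of the list at both times.

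Bnip3, a mitophagy receptor, had 14.4, 35.8 and 53.3 CPM and passed at 7-day WGP. P4ha1, the collagen prolyl hydroxylase subunit, had 43.3, 105 and 78.5 CPM and passed at 3-day WGP. Pdk1, the kinase that holds pyruvate back from mitochondria, had 12.6, 28.2 and 25.8 CPM. Ndrg1 had 9.21, 17.9 and 19.5 CPM, and both of these had ratios near 2-fold on levels too low to pass with 10 CPM added. Ddit4, an inhibitor of mTORC1 and a stress gene, stayed at 7.47 to 9.11 CPM, and P4ha2 at 1.84 to 2.46 CPM.

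**Figure D2:**
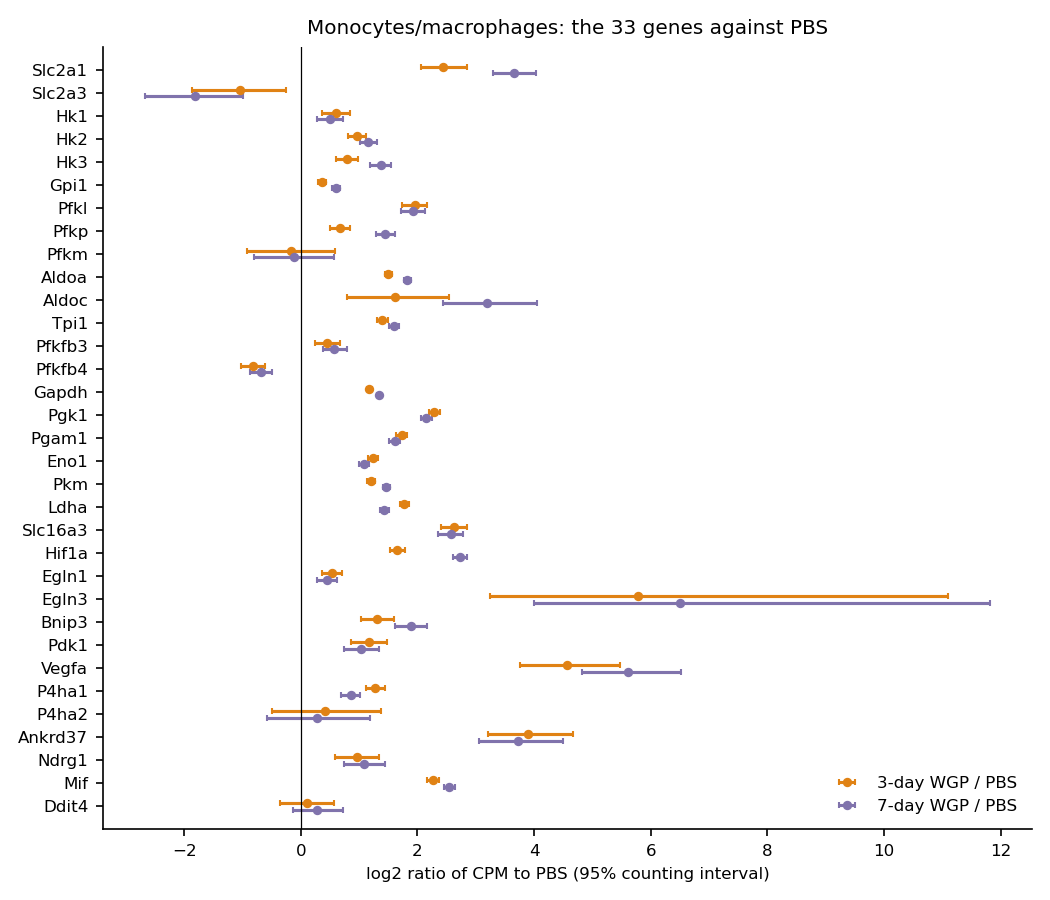
Log2 ratio of CPM to PBS in monocyte/macrophages for each of the 33 members, 1 point for 3-day WGP and 1 for 7-day WGP, with 95% intervals of counting error. Points lie to the right of 0 for 30 of 33 members at each time, Vegfa reaches 4.56 and 5.61, and the widest intervals belong to Egln3, which had 1 UMI in PBS.

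The share of cells with a UMI moved in the same order as the levels. With each monocyte/macrophage thinned to 1000 UMIs, Slc2a1 was seen in 0.823% of PBS cells, 3.6% of 3-day cells and 9.21% of 7-day cells. Before thinning the shares were 6.11%, 29.2% and 47.9%, at median depths of 10092, 14006 and 10842 UMIs per cell. Hif1a was seen in 6.11%, 17.8% and 34.6% of thinned cells (42.7%, 77.6% and 84.0% before thinning) and Mif in 7.17%, 31.1% and 35.6% (46.2%, 84.3% and 86.0%). In erythroid cells, which should lack these transcripts, Slc2a1 and Mif were seen in 0 of 123, 0 of 89 and 0 of 77 thinned cells, which allows shares of up to 2.44%, 3.37% and 3.90% by a limit of 3 counts and up to 2.95%, 4.06% and 4.68% by the exact interval. Hif1a was seen in 0.813% of them in PBS. The PBS share of Slc2a1 in macrophages lies below both limits of its library and the 3-day share between them, while its 7-day share and those of Mif lie above.

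Monocyte/macrophages fell into 3 clusters, and their mix differed between libraries. Cluster 7, led by Pf4, Mrc1, Stab1 and Folr2, held 75.6% of them in PBS. Cluster 6, led by Saa3, Arg1 and Marco, held 57.5% in 3-day WGP, and cluster 0, led by Ly6i, Cxcl9 and Cxcl10, held 74.9% in 7-day WGP. The sum of the members was also computed with each cluster at its PBS level and the mix as observed. It came to 4146 CPM in 3-day WGP and 4239 CPM in 7-day WGP. Their excess over PBS is 22.0% and 20.1% of the observed difference. The calculation takes a cluster to hold the same kind of cells in each library. Its PBS level of cluster 6 comes from 48 cells, fewer than required for a comparison. The part of the mix in the result was therefore not tested.

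Within clusters the levels differed unequally. Cluster 7 had 2739, 2611 and 3275 CPM in 643, 101 and 40 cells, so its 3-day level was near that of PBS (log2 -0.07, -0.13 to -0.01), and 1 of 28 members with enough UMIs, Ddit4, was past 2-fold higher at 3-day WGP, where 0.694% of genes tested were. Cluster 0 had 4279, 7056 and 8628 CPM in 160, 229 and 1106 cells, log2 0.72 (0.68 to 0.76) and 1.01 (0.98 to 1.05). Of its members with enough UMIs, 5 of 29 passed at 3-day WGP (Pfkl, Hif1a, Vegfa, Ankrd37 and Mif) where 1.91% of genes tested did, and 10 of 31 at 7-day WGP with 1 lower, Ddit4, where 3.26% did. Cluster 6 had 4254, 8821 and 9657 CPM, the PBS value from 48 cells. Cells were clustered on other genes whose levels also differed between libraries, so the same cluster need not hold the same cells in each.

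The split by sex of the monocyte/macrophages was as follows. Xist, transcribed in female cells, and 4 genes of chromosome Y (Ddx3y, Eif2s3y, Kdm5d and Uty) were used to sort monocyte/macrophages into those with Xist and no Y UMI and those with a Y UMI and no Xist, a split used here because both sexes were studied. Of the PBS monocyte/macrophages 798 had Xist and 10 had Y. Of the 3-day ones 83 had Xist and 494 had Y, and of the 7-day ones 572 had Xist and 596 had Y. Sex and treatment therefore moved together in this class at 3-day WGP. Xist and Y cells also come from different mice, so sex and animal cannot be told apart here.

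The Xist and Y cells of the 3-day library differed, in a comparison added after the values were seen. The members summed to 4172 CPM (4058 to 4288) in its Xist cells and 8554 CPM (8491 to 8618) in its Y cells, log2 1.04 (0.99 to 1.08), and 12 of 33 members were past 2-fold higher in Y cells, where 2.29% of genes tested were. These 12 were Slc2a1, Aldoa, Tpi1, Pgk1, Pgam1, Ldha, Slc16a3, Hif1a, Bnip3, Vegfa, Ankrd37 and Mif. Against the Xist cells of PBS (3086 CPM), the Xist cells of 3-day WGP differed by log2 0.43 (0.39 to 0.48), with 0 of 31 members past 2-fold, at the background of 2.14% higher and 1.28% lower given above. Slc2a1 had 6.91 CPM in PBS Xist cells, 4.93 CPM in 3-day Xist cells and 44.9 CPM in 3-day Y cells.

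In 7-day WGP the sums over the class were close: Xist cells had 8779 CPM and Y cells 8860 CPM, log2 0.01 (0.00 to 0.03). There 0 of 32 members were past 2-fold apart, where 0.148% of genes tested were higher in Y cells and 0.215% lower. The gaps within clusters 0 and 6 went opposite ways. In cluster 0 Xist cells had 8238 CPM and Y cells 8873 CPM, and in cluster 6 they had 10616 and 9067 CPM. The 7-day Xist cells against the PBS Xist cells gave log2 1.51 (1.49 to 1.53), with 17 of 33 members past 2-fold higher where 3.44% of genes tested were. The gap between Xist and Y cells at 3-day WGP also stood within cluster 0, at 4694 CPM in 27 Xist cells and 7669 CPM in 140 Y cells, and within cluster 6, at 4845 CPM in 28 Xist cells and 9223 CPM in 313 Y cells. Most of the 3-day difference from PBS thus rests on Y cells. The 10 Y cells of PBS held 2916 CPM (2461 to 3432), near the 3086 CPM of its Xist cells and below the 8554 CPM of the 3-day Y cells, but they are fewer than the 50 cells required for a comparison. The 7-day difference was as large in Xist cells alone.

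**Figure D3:**
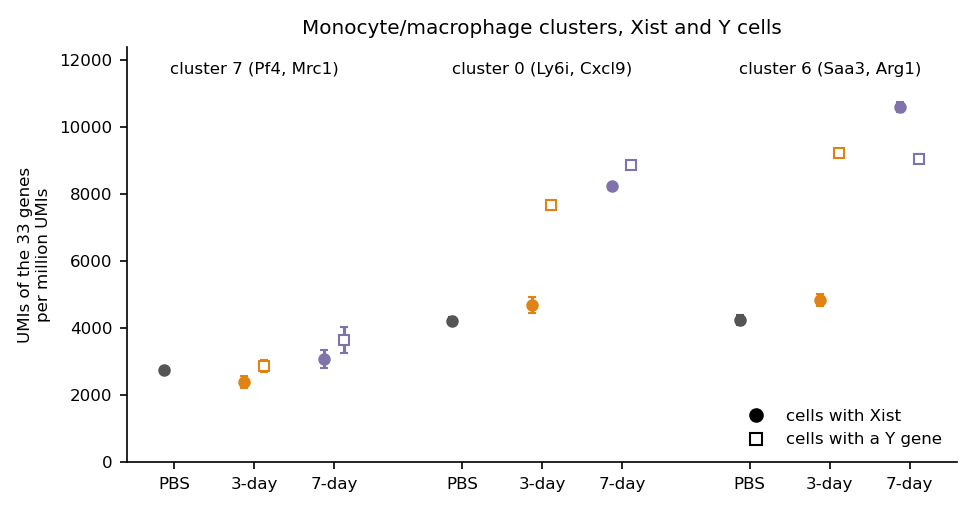
Summed level of the 33 members (CPM, linear axis from 0) in the 3 monocyte/macrophage clusters by library, with filled circles for cells with Xist, open squares for cells with a Y gene and 95% intervals of counting error; groups of under 8 cells are not drawn. In clusters 0 and 6 the 3-day Xist cells lie at 4694 and 4845 CPM, close to PBS, and the 3-day Y cells at 7669 and 9223 CPM, while cluster 7 stays between 2399 and 3641 CPM.

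Other gene groups moved with the members in this class. Proliferation genes summed to 513, 112 and 102 CPM, with 8 and then 9 of 10 past 2-fold lower. Immediate early genes, which rise when tissue is dissociated, summed to 3704, 5927 and 6974 CPM, and Atf3, Fos and Junb passed. Their part in the result was not tested. Of the markers of other cell types, the 10 of neutrophils summed to 169, 522 and 239 CPM and the 13 of T cells to 21.9, 72.1 and 54.2 CPM, both lowest in PBS. The acinar list had 1141, 157 and 120 CPM and the B cell list 282, 154 and 109 CPM, both highest in PBS. In monocyte/macrophages 1 neutrophil marker was at 0 in PBS and no other marker of these lists was at 0 in any library. The monocyte/macrophage list itself had 33638, 31724 and 34658 CPM, and the part of these lists in the result was not tested.

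Genes of neighbouring pathways were counted by the same rule in monocyte/macrophages. Of 27 other glycolysis genes, 17 had enough UMIs at 3-day WGP and 15 at 7-day WGP, and at both times Slc2a6, a lysosomal hexose transporter, was higher (17.4, 100.2 and 89.7 CPM) and Txnip, an inhibitor of glucose uptake, lower (572, 278 and 207 CPM). None of the 7 pentose phosphate genes passed at either time, nor any gene of pyruvate entry (9 and 10 with enough UMIs) or of the other HIF pathway genes (8 at each time). Of the glycogen genes Pygl passed at 3-day WGP (50.4 and 150 CPM). Among other hypoxia targets 5 of 19 passed at 7-day WGP (Bhlhe40, Ero1l, Higd1a, Hilpda and Sdc4), and Bhlhe40, Ero1l and Hilpda passed at 3-day WGP too, as did Hmox1 and Plin2 at that time. Hilpda, a lipid droplet protein, had 10.7, 64.3 and 65.4 CPM.

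In neutrophils (89, 238 and 194 cells) the members were already high in PBS. They summed to 5708, 6543 and 7424 CPM, log2 0.20 (0.14 to 0.25) and 0.38 (0.32 to 0.44), the highest PBS sum of the compared classes. In the median neutrophil they took 0.546% of UMIs in PBS, 0.590% at 3-day WGP and 0.4995% at 7-day WGP, so at 7-day WGP the median cell lay below PBS while the sum lay above it. Of 29 members with enough UMIs, 7 were past 2-fold higher and 1 lower at 3-day WGP, and 13 higher and 1 lower at 7-day WGP. Of all genes tested 13.1% were higher and 4.29% lower at 3-day WGP, and 12.2% and 4.10% at 7-day WGP, so these libraries differed widely in this class. Neutrophils with Xist alone numbered 24 in PBS, 10 at 3-day WGP and 22 at 7-day WGP. Those with Y genes alone numbered 8, 99 and 49, so sex and treatment moved together in this class too. In PBS both kinds were below the number of cells required for a comparison. The part of sex in the neutrophil differences was not tested.

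The neutrophil members past 2-fold higher came from several groups, and no gene of lower glycolysis was among them. In the group of other HIF targets, Mif had 54.4, 293 and 398 CPM, log2 2.43 (1.91 to 2.99) and 2.87 (2.35 to 3.44). Bnip3 had 8, 74 and 52 UMIs (13.2, 61.5 and 80.0 CPM), log2 2.22 (1.17 to 3.48) and 2.60 (1.52 to 3.89). Vegfa had 8, 79 and 49 UMIs (13.2, 65.6 and 75.4 CPM), log2 2.31 (1.27 to 3.58) and 2.51 (1.42 to 3.80). These genes, Ankrd37 and P4ha1 passed at both times. Ankrd37 had 11, 73 and 64 UMIs (18.1, 60.6 and 98.5 CPM), log2 1.74 (0.82 to 2.81) and 2.44 (1.51 to 3.51), and P4ha1 had 3, 40 and 33 UMIs, log2 2.75 (1.10 to 5.08) and 3.36 (1.69 to 5.71). Ddit4 had 4, 19 and 18 UMIs and passed at 7-day WGP, log2 2.07 (0.47 to 4.09).

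In upper glycolysis both Pfkl (7, 47 and 37 UMIs; 11.5, 39.0 and 56.9 CPM) and Pfkp (37.9, 91.4 and 138 CPM) passed at both times in neutrophils, at log2 1.76 (0.60 to 3.15) and 2.30 (1.12 to 3.71) for Pfkl and 1.27 (0.61 to 1.98) and 1.87 (1.19 to 2.60) for Pfkp. Higher at 7-day WGP alone were Tpi1 (97.3, 185 and 278 CPM), Hk2 (41.2, 47.4 and 126 CPM), Slc2a1 (47.8, 76.4 and 140 CPM), Hif1a (57.7, 115 and 192 CPM) and Egln3 (6, 23 and 32 UMIs), with log2 1.52, 1.61, 1.55, 1.74 and 2.31. Of the 13 higher at 7-day WGP, 6 thus belonged to the other HIF targets. Gapdh had 1569, 1445 and 1468 CPM, and Pgk1 262, 297 and 292 CPM, both within 2-fold. Gpi1 was the member that was lower at both times, with 663, 287 and 312 CPM, log2 -1.21 (-1.42 to -1.0) and -1.09 (-1.34 to -0.84).

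The neutrophils of PBS were few and mixed. Of the 89, 58.4% (52 cells) lay in cluster 14 and the other 37 in cluster 23, which was led by the granule genes Ngp and Camp of immature neutrophils and held 13 and 6 cells in the WGP libraries. The monocyte/macrophage list had 15245 CPM in PBS neutrophils and 7090 and 7076 CPM in the WGP libraries, and its part in the result was not tested. Within cluster 14 alone the members had 5483, 6754 and 7550 CPM, log2 0.30 (0.20 to 0.41) and 0.46 (0.35 to 0.57). There 4 of 28 were higher and 1 lower at 3-day WGP, where 15.8% of genes tested were higher, so the 3-day count was near the share of all genes. At 7-day WGP 11 of 28 were higher and 1 lower, where 14.9% of genes tested were higher. Tpi1, Bnip3, Vegfa and Mif passed at both times. Gpi1 no longer passed, and the lower members were Slc2a3 at 3-day WGP and Pfkfb4 at 7-day WGP.

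Conventional dendritic cells (312, 259 and 376 cells) had 3549, 3890 and 4604 CPM, log2 0.13 (0.10 to 0.17) and 0.38 (0.35 to 0.40). No member of 29 passed in either direction at 3-day WGP, where 0.663% of genes tested were higher and 0.676% lower. At 7-day WGP 2 of 30 were higher and 0 lower, where 2.11% and 0.947% of genes were. These were Hif1a (67.4, 72.4 and 195 CPM) and Hk3 (8.17, 11.6 and 27.4 CPM). In Xist cells alone Hif1a did not pass. Under the alternative settings the 7-day log2 difference of the sum ranged from 0.073 to 0.445.

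T cells (527, 635 and 687 cells) had 3871, 3867 and 5462 CPM, log2 0.00 (-0.04 to 0.04) and 0.50 (0.46 to 0.53). Of 29 members 0 passed at 3-day WGP, where 0.339% of genes were higher and 0.117% lower, and of 31 members 1, Hif1a, was higher at 7-day WGP, where 1.35% were higher and 0.167% lower. The 7-day difference lay mainly in cluster 9, led by Tnfrsf4, Ikzf2 and Icos, with 4628, 5219 and 7788 CPM in 163, 213 and 282 cells. There Aldoa, Pgam1, Slc16a3 and Hif1a passed at 7-day WGP, 4 of 29 where 2.55% of genes did. The other T cell clusters, 8 and 13, had 3832, 3900 and 4225 CPM and 3042, 2824 and 2916 CPM. In T cells the sum of the monocyte/macrophage list was 1036, 1395 and 1617 CPM, and its part was not tested.

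The T cells were split in the same way, which again separates mice as well as sexes. Cells with Xist had 4677, 3211 and 3995 CPM in the order PBS, 3-day WGP and 7-day WGP, and cells with a Y UMI 3131, 4443 and 6425 CPM. Cluster 9 made up 40.9%, 22.4% and 20.5% of the Xist T cells and 26.3%, 36.1% and 50.8% of the Y T cells. Within cluster 9 Xist cells had 5111, 4443 and 6729 CPM and Y cells 3817, 5430 and 8243 CPM, so the 7-day level was the highest in both.

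γδ T cells (135, 395 and 62 cells) had 4137, 5610 and 4966 CPM, log2 0.44 (0.38 to 0.50) and 0.26 (0.18 to 0.35). None of 23 members passed at 3-day WGP, where 0.696% of genes were higher and 0.696% lower. Hif1a was the 1 of 19 that was higher at 7-day WGP (112, 131 and 405 CPM) and 0 were lower, where 2.47% and 3.47% of genes were. Gapdh in these cells had 1044, 1668 and 1057 CPM. At 3-day WGP 5 of the 10 proliferation genes were past 2-fold higher and 6 of the 10 immediate early genes lower, and their part was not tested. Xist cells numbered 25 in PBS and 7 at 3-day WGP, with a sum of 4661 and 4172 CPM. Y cells numbered 59 and 213, with 4023 and 5619 CPM. The part of sex in the 3-day difference was not tested.

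NK cells (133, 428 and 403 cells) had 3241, 4117 and 3919 CPM, log2 0.35 (0.28 to 0.41) and 0.27 (0.21 to 0.34). Of 26 members 1 was higher and 0 lower at 3-day WGP, where 1.03% of genes were higher and 0.188% lower, and 2 higher and 0 lower at 7-day WGP, where 1.43% and 0.473% were. Vegfa had 4, 51 and 80 UMIs (5.94, 23.6 and 27.0 CPM), with an interval of 0.55 to 3.92 around its 3-day log2 difference of 1.99. Hif1a, the other member higher at 7-day WGP, had 49.0, 70.4 and 125 CPM. Proliferation genes summed to 215, 724 and 748 CPM in these cells, and their part was not tested.

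B cells (1954, 837 and 519 cells) had 2738, 3459 and 2681 CPM, log2 0.34 (0.31 to 0.36) and -0.03 (-0.06 to 0.00). Of 29 and 27 members 0 passed in either direction, where 0.971% of genes were higher and 0.121% lower at 3-day WGP, and 0.775% and 0.190% at 7-day WGP. The 3-day difference was spread over glycolysis, with Gapdh at 805, 1111 and 766 CPM and Ldha at 208, 288 and 188 CPM. Proliferation genes had 211, 836 and 455 CPM, the same order, and their part was not tested. Under the alternative settings the 3-day log2 difference of the sum ranged from 0.085 to 0.51. From PBS to 3-day WGP, Xist cells went from 3268 to 3584 CPM and Y cells from 2544 to 3612 CPM. By cluster, the sum went from 3215 to 4040 CPM in cluster 2. It went from 2384 to 2690 CPM in cluster 1 and from 2379 to 2460 CPM in cluster 5.

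Plasma cells (256, 582 and 81 cells) had the lowest sum of the compared classes apart from erythroid cells: 1806, 1963 and 1210 CPM, log2 0.12 (0.09 to 0.15) and -0.58 (-0.63 to -0.53). Of 29 members 0 passed at 3-day WGP, where 0.225% of genes were higher and 0.605% lower. Of 28 members 1, Vegfa (9.64, 9.93 and 29.6 CPM), was higher at 7-day WGP and 0 lower, where 0.827% and 3.48% of genes were. Gapdh had 725, 829 and 452 CPM. With 10 CPM added, the median of the 28 members lay at -0.31 and that of all genes tested at -0.40. Only 17 members reached the 10 CPM asked of all genes, and levels below it are drawn toward 0. These medians therefore cannot tell whether the members were lower than other genes. With TMM factors, which scale to the bulk of the genes, the 7-day sum differed from PBS by log2 -0.0022.

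Classes with too few cells in a library were not compared at each time. ILC2 (294 and 295 cells, then 13) had 3621 and 4170 CPM in PBS and 3-day WGP, and fibroblasts (81 and 51 cells, then 34) 3101 and 3568 CPM. Plasmacytoid dendritic cells had 2975 and 3283 CPM in 3-day and 7-day WGP, with 46 cells in PBS, and acinar cells numbered 37, 97 and 13. Erythroid cells, which do not keep these transcripts, had 40.4, 19.7 and 28.5 CPM, and the sum in free RNA, from barcodes of at most 100 UMIs, was 1890, 3642 and 4412 CPM.

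Hif1a was past 2-fold higher in 6 of the 8 compared classes at 7-day WGP, the most of any member, and in 3 of these, T cells, conventional dendritic cells and NK cells, it did not pass in Xist cells alone. It had a log2 difference from PBS of 2.73 in monocyte/macrophages, 1.85 in γδ T cells (1.43 to 2.28), 1.74 in neutrophils (1.19 to 2.32), 1.53 in conventional dendritic cells (1.35 to 1.71), 1.36 in NK cells (0.84 to 1.92) and 1.35 in T cells (1.19 to 1.52). In B cells it was 0.41 (0.23 to 0.58) and in plasma cells -0.52 (-0.88 to -0.17). At 3-day WGP the difference was 1.65 in monocyte/macrophages and 1.0 (0.46 to 1.58) in neutrophils, and the intervals of T cells, conventional dendritic cells, γδ T cells, NK cells and B cells included 0, while in plasma cells Hif1a was lower, at -0.63 (-0.84 to -0.41). In Xist cells alone the 7-day difference was 2.43 in monocyte/macrophages, but 0.37 in T cells (102 to 133 CPM), 0.72 in conventional dendritic cells (66.5 to 109 CPM) and 0.82 in NK cells (42.5 to 75.1 CPM), and in B cells Hif1a was lower at 7-day WGP (71.3 to 58.3 CPM). In Y cells it was 1.36 in T cells (161 to 413 CPM) and 1.62 in conventional dendritic cells (73.3 to 225 CPM). γδ T cells and neutrophils had at most 25 Xist cells in a library, where Hif1a went from 81.0 to 253 CPM and from 61.6 to 228 CPM. Over all cells of these classes Hif1a was higher at 7-day WGP without a like difference in Gapdh, whose 7-day log2 values were 0.46 in T cells, 0.35 in NK cells, 0.27 in conventional dendritic cells and 0.02 in γδ T cells. All classes of a library share its depth and preparation, so they are not independent of each other.

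**Figure D4:**
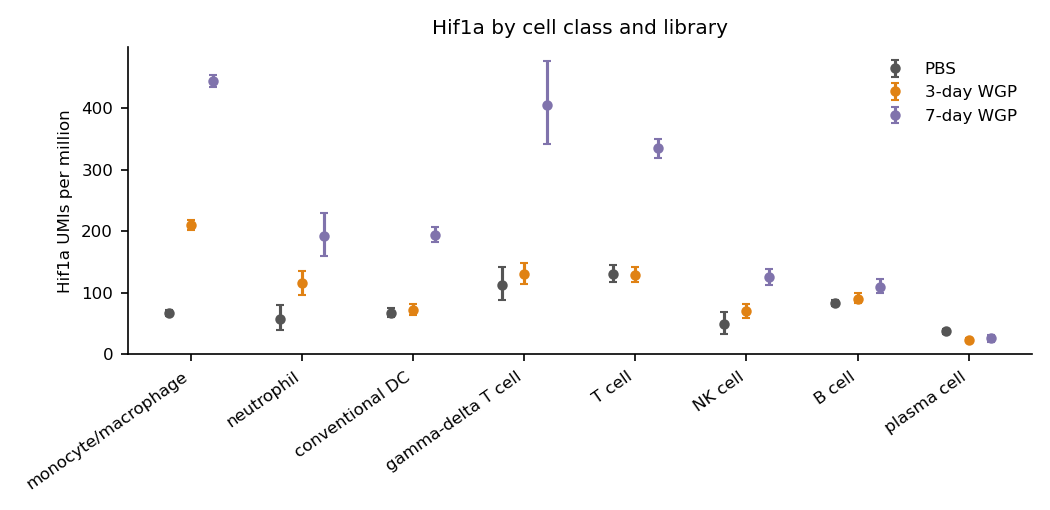
Hif1a level (CPM, linear axis from 0) in each compared class by library, with 95% intervals of counting error. At 7-day WGP the level reaches 444 CPM in monocyte/macrophages, 405 CPM in γδ T cells and 335 CPM in T cells, and plasma cells lie below PBS.

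The class with the highest level of a member differed between libraries, and so did the classes with enough cells to be ranked. In PBS, among 11 classes of at least 50 cells, neutrophils had the highest level of 13 members (among them Slc2a1, Slc2a3, Hk3, Gapdh, Pkm and Slc16a3), fibroblasts of 7 (among them Vegfa and Ndrg1) and monocyte/macrophages of 1, Hk2. Slc16a3 was at 206 CPM in PBS neutrophils and 20.9 CPM in the next class, monocyte/macrophages, and Vegfa at 143 CPM in fibroblasts and 13.2 CPM in neutrophils. For Hk2 the order was close, at 50.6 CPM in monocyte/macrophages and 49.2 CPM in conventional dendritic cells. In 3-day WGP monocyte/macrophages led for 12 members and neutrophils for 9, and in 7-day WGP each led for 12. The 12 led by monocyte/macrophages at 7-day WGP included Aldoa, Gapdh, Pgk1, Pgam1, Eno1, Hif1a and Mif, while neutrophils kept Slc2a1 (140 against 87.1 CPM), Slc2a3, Hk3, Pkm and Slc16a3 (377 against 124 CPM). The number of classes with enough cells was 11, 13 and 10 in the libraries. Fibroblasts (34 cells) and ILC2 (13 cells) were not ranked at 7-day WGP. In fibroblasts Ndrg1 (52.7 against 38.5 CPM), P4ha1 (83.9 against 78.5 CPM), P4ha2 and Pfkm lay above the class ranked highest at that time. Vegfa (46.1 against 75.4 CPM), Tpi1 and Bnip3 lay below it. In ILC2 Ldha, Ddit4, Hk1 (106 against 53.4 CPM) and Pdk1 (58.0 against 37.3 CPM) lay above it. The 7-day order for Pgam1 was close, at 392 CPM in monocyte/macrophages and 391 CPM in neutrophils.

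**Figure D5:**
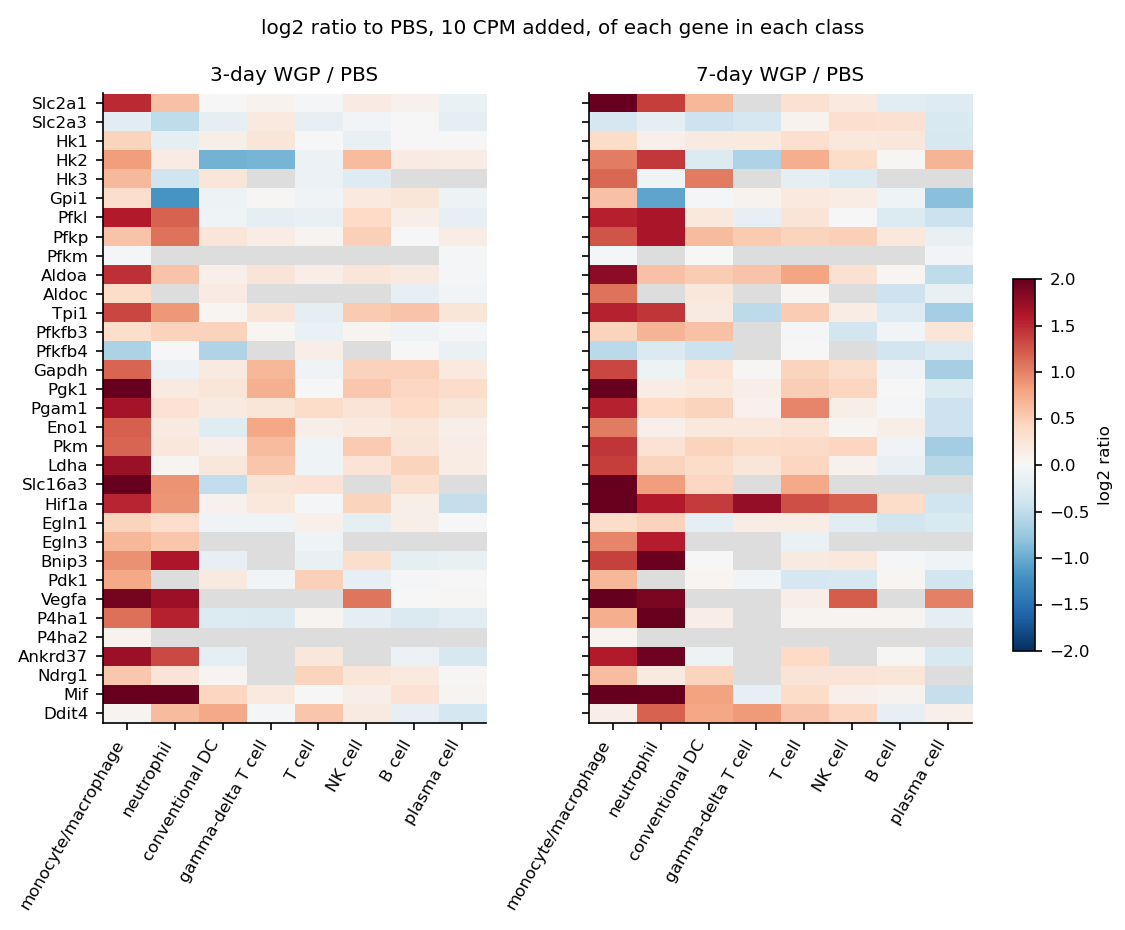
Log2 ratio to PBS, with 10 CPM added, for each member (vertical) in each of 8 classes (horizontal) at 3-day and 7-day WGP, on a colour scale that ends at -2 and 2. Grey marks members with under 20 UMIs in the pair of libraries, the monocyte/macrophage column is high over most of the list, and at 7-day WGP Hif1a is high in 6 of the 8 classes.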

How the data were processed

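The authors made 10x Genomics 3′ v3.1 libraries from live CD45+ cells and counted genes with Cell Ranger 3.1.0 against mm10; the submitters' notes also name Seurat. The deposited values are raw UMI counts for each gene in each barcode, and 0 value columns were left unused. The members and gene lists were chosen with earlier results of these data known.

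Barcodes with at least 1000 UMIs and at most 30% mitochondrial UMIs were kept (440, 206 and 347 were removed for the latter in PBS, 3-day WGP and 7-day WGP). The 3 libraries went into 1 clustering with sctransform 0.4.2 and Seurat 5.3.0 in R 4.3.3, without the members, on 30 principal components at a resolution of 0.8. Of 25 clusters, those whose marker list had a mean log2 fold of at least 1 over the other cells, with 20 CPM added, 3 or more raised markers and a lead of 0.5 over the next list took a name, which gave 13 classes. The name of one monocyte/macrophage cluster, led by Saa3 and Arg1, rests on a rule set after the clusters were seen, that most of its list was raised. Unnamed clusters held 411, 115 and 183 cells, 7.83%, 2.36% and 4.38% of the libraries. Doublets were scored with Scrublet in scanpy 1.11.5, whose automatic limit marked 0, 0 and 2 barcodes and so did not work; doublets were kept, and the highest 220, 190 and 139 scores were removed as an alternative.

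Counts were summed per class and library in Python (numpy 2.4.6, pandas 2.3.3) and given as CPM. Intervals at the 95% level came from scipy 1.17.1: exact Poisson for a level, exact conditional binomial for a ratio and Clopper-Pearson for a share. UMIs were taken as independent molecules. No test was run, since each group had 1 library. Classes with at least 50 cells in both libraries were compared. All genes tested were those with at least 10 CPM in either library of a pair, and members were counted over those with at least 20 UMIs in the pair, so the filters differ. All 33 members had that number in monocyte/macrophages. By the rule for named genes, up to 5 members past 2-fold higher and 5 lower per class were given with full values and the others by level or count, and from other lists at most 3 a class, except where a count was spelled out. One result of the list of other hypoxia targets is not reported here. The share of free RNA in cells, estimated from acinar markers, was 1.08%, 1.68% and 0.915%. The ratio calculation was tested on simulated data. TMM factors came from edgeR 4.0.16. The alternatives were other clusters, barcode limits, doublet removal, free RNA subtraction, scalings, Xist or Y cells alone, and other amounts of added CPM.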

Additional observations from a re-analysis of the deposited data

Results flagged for a closer look

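The sum of the members in plasma cells lay below PBS at 7-day WGP, by log2 -0.58, while 6 of the other compared classes lay above PBS. With TMM factors it was -0.0022. The difference between classes was not tested, and the 7-day plasma cells numbered 81.

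In T cells the differences from PBS went in opposite directions for cells with Xist and cells with a Y UMI. At 3-day WGP they were -0.54 in Xist cells and 0.50 in Y cells, and at 7-day WGP -0.23 in Xist cells and 1.04 in Y cells. With 1 library per group the difference was not tested, and T cell cluster 9, in which the members are highest, took different shares of the 2 kinds of cell.

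Outside the cells, in barcodes of at most 100 UMIs, the members summed to 3642 CPM at 3-day WGP and 4412 CPM at 7-day WGP, above the 1890 CPM of PBS.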

How the results depend on the processing

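Each group had 1 library, and only the direction and size of a value can be compared between settings. No paired analysis was possible because each group has 1 library and no test was run. The sum of the members in monocyte/macrophages, at log2 1.35 and 1.51 for 3-day and 7-day WGP, was 1.47 and 1.63 with Leiden clusters of log-normalized counts, 0.97 and 1.49 without barcodes above the knee (9773 UMIs), 1.41 and 1.57 without high Scrublet scores, 1.49 and 1.78 with TMM factors, 1.28 and 1.47 as CPM without mitochondrial and ribosomal protein genes, 1.31 and 1.56 as a mean over cells, 1.42 and 1.57 without Gapdh, and 0.43 and 1.51 in Xist cells only. The 16 members higher at 3-day WGP became 8 without barcodes above the knee and 0 in Xist cells only, where Slc2a1 turned to -0.49. The limit at the knee removed most cells of this class, and the share of all genes was not counted under it. The 20 higher at 7-day WGP became 12 with 50 CPM added, where the share of all genes was not counted either.

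In other classes the share of all genes was not counted under the alternatives, so the counts of members given here have no background. TMM factors turned the 3-day sum of neutrophils to -0.092, and 50 CPM added left 1 and 6 neutrophil members higher at the 3-day and 7-day times. For T cells the members higher at 7-day WGP were 2 with Leiden clusters, 0 in Xist cells (where the sum was -0.23), 10 in Y cells and 5 with no CPM added, and at 3-day WGP 1 in Xist cells, 2 in Y cells and 1 with no CPM added. For conventional dendritic cells at 7-day WGP they were 1 as a mean over cells, 1 in Xist cells, 4 in Y cells and 1 with 50 CPM added, and at 3-day WGP 1 in Y cells and 1 with no CPM added. For NK cells at 3-day WGP they were 0 with Leiden clusters, without barcodes above the knee, without high Scrublet scores, as a mean over cells and with 50 CPM added, and 2 with no CPM added. At 7-day WGP they were 0 in Xist cells and 0 with 50 CPM added. For γδ T cells 1 was higher at 3-day WGP in Y cells. For B cells 2 and 1 were higher with no CPM added. For plasma cells at 7-day WGP 0 were higher with at most 10% mitochondrial UMIs, without high Scrublet scores, without mitochondrial and ribosomal protein genes and with 50 CPM added, and 2 as a mean over cells and with no CPM added, and the 3-day sum in Y cells was -0.094. A minimum of 2000 UMIs, removal of barcodes over 40% ribosomal protein UMIs, free RNA subtraction and TMM factors moved no count of members higher by more than 1.5 times. Y cells alone gave no value for monocyte/macrophages, since PBS had 10 of them. Shares of cells were larger without thinning by construction.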
